A study of Mus musculus with 6 samples.

Results

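Glycolysis and the pentose phosphate pathway were followed through 34 genes in macrophages cultured with a cancer cell line. The genes were taken by symbol, from the glucose transporters to the lactate transporters and through both branches of the pentose phosphate pathway, and all 34 were found among the 56691 genes of the deposited table. The cells were mouse macrophages grown from bone marrow with the growth factor M-CSF, which both groups received, and then kept with mEC25, described in the labels as a line of cancer cells. In the contact group (3 libraries) the macrophages touched the mEC25 cells, and in the transwell group (3 libraries) the cells shared medium only. Macrophages were sorted before RNA sequencing. The labels name no strain, age, length of co-culture or sort marker. They also do not say that replicates were separate cultures or animals, so every p-value here reflects the spread among these 6 libraries, which could be technical.

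Glycolysis splits glucose into pyruvate in the cytosol, and lactate dehydrogenase and the lactate transporters let the flow go on when pyruvate does not enter the mitochondria. The pentose phosphate pathway branches off after hexokinase, makes NADPH in its oxidative branch and returns sugars to glycolysis in its non-oxidative branch. In macrophages both are known to respond to activation, and many steps have several isozymes encoded by separate genes. Transcript levels do not measure enzyme activity or flux.

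Contact libraries held 20911880 to 22563835 counts and transwell libraries 18173192 to 18895818. The 12 macrophage markers, among them Lyz2, Csf1r and Adgre1, were above 0 in both groups, with a summed level of 15457 to 17419 FPKM in contact and 17015 to 18151 FPKM in transwell libraries, most of it Lyz2 (FPKM is fragments per kilobase of exonic length and per library size, as deposited). Of these markers 3 were higher in contact, among them Cd14 (log2 change 1.49), and 5 lower, among them Fcgr1 (-1.91) and Adgre1 (-1.20), by the edgeR test used below. The 30 epithelial markers summed to 1165, 1752 and 998 FPKM in contact replicates 1, 2 and 3 and to 9.50, 10.4 and 9.84 FPKM in transwell replicates 1, 2 and 3, and 3 of them were at 0 in all transwell libraries and none in contact. Transwell replicate 1 also differed from the other transwell libraries in its neutrophil markers, which summed to 1123, 863 and 757 FPKM in contact replicates 1, 2 and 3 and to 1142, 509 and 485 FPKM in transwell replicates 1, 2 and 3. Most of that sum was S100a8 and S100a9, which did not pass. Ngp, Camp and Ltf did not pass either (edgeR adjusted p = 0.201, 0.237 and 0.485). Mpo (6.12-fold, edgeR adjusted p = 0.000419) and Elane (6.85-fold, adjusted p = 6.26e-05) were higher in contact, and the part of such cells in the results was not tested. Fewer cells of a type and less RNA per cell cannot be told apart in such libraries.

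Libraries of the contact group held less transcript of all 3 hexokinase genes, and more of Ldhb, Aldoc, Slc2a1 and Slc16a3. Hk3, the main hexokinase gene here, was 3.23-fold lower in contact libraries, and G6pdx, which encodes the first enzyme of the oxidative pentose phosphate branch, was 1.53-fold lower. Ldhb, a lactate dehydrogenase gene, was 2.22-fold higher, Aldoc, an aldolase gene, 1.85-fold higher and Slc16a3, the gene of the lactate exporter MCT4, 1.33-fold higher. The members' share of all counts was 1.57 ± 0.037% with contact and 1.63 ± 0.101% with transwell (SD, n = 3 each), and the groups overlapped.

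Of the 34 members, 33 had enough counts to be tested, and Fbp1 had not. By edgeR's quasi-likelihood test at a Benjamini-Hochberg adjusted p under 0.05 over all genes, 7 of the 33 were higher in contact (21.2%) and 10 lower (30.3%), against 21.4% higher and 16.1% lower among all 14113 genes tested. In either direction 17 members (51.5%) passed, against 37.5% of all genes. The median log2 change (contact minus transwell throughout) was -0.14 for the members and 0.03 for all tested genes, and the median size of the change was 0.23 for the members and 0.28 for all genes. An adjusted p under 0.05 together with a change of at least 2-fold was found in 2 members, Hk3 and Ldhb, and in 14.2% of all tested genes. In 20 members the FPKM of the groups did not overlap (60.6%), against 51.2% of all tested genes.

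The scale matters for changes this small. Contact libraries had TMM scaling factors of 1.04 to 1.05 and transwell libraries of 0.953 to 0.970, so FPKM as deposited sets contact higher than the scaled counts do, by a median of 0.10 on the log2 scale over all genes. With limma on log2(FPKM + 1), 9 members were higher and 6 lower, and over all genes 3811 were higher and 1422 lower. After quantile normalization 2390 of all genes were higher and 3418 lower, against 3016 and 2270 in the edgeR test. 10 members held their call and direction under all 18 alternatives: Slc2a1, Aldoc, Ldhb and Slc16a3 as higher, and Hk1, Hk2, Hk3, Gpi1, Pfkfb4 and G6pdx as lower.

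**Figure D1:**
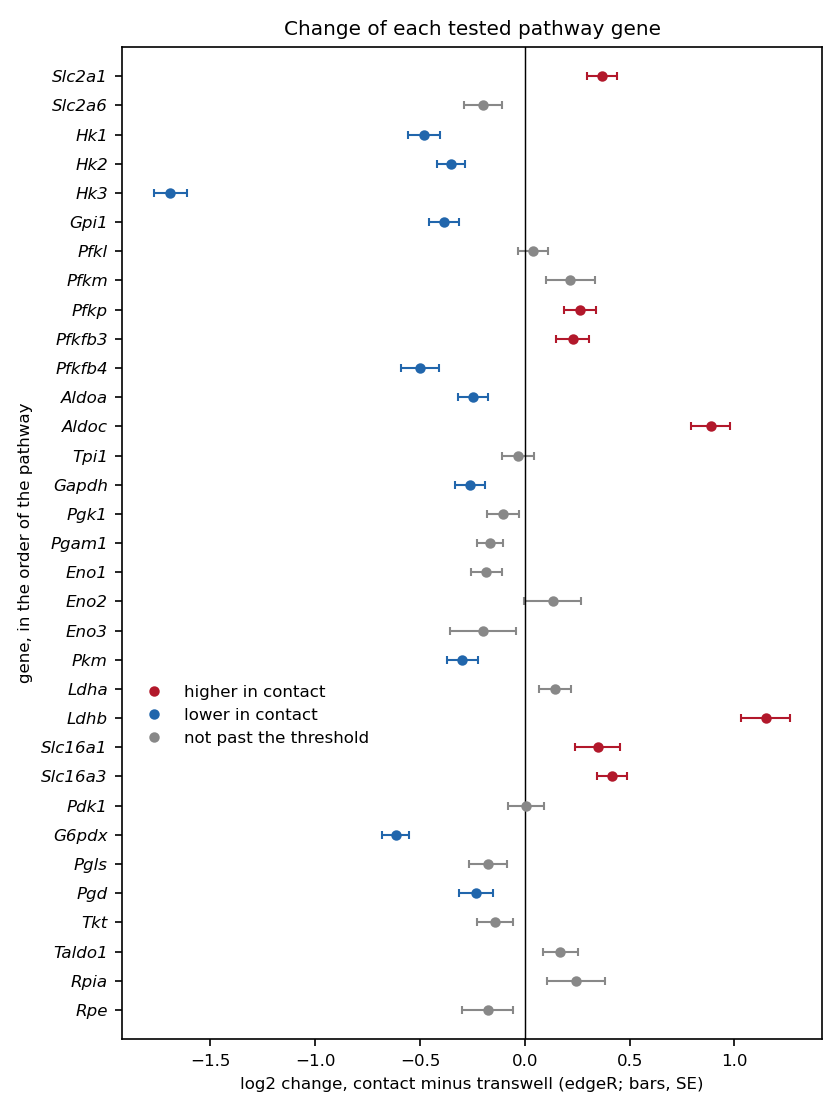
Log2 change (contact minus transwell, edgeR) of the 33 tested members, from glucose uptake at the top to the pentose phosphate pathway at the bottom, with bars for the standard error. Hk3 stands alone at -1.69, Ldhb at 1.15 and Aldoc at 0.89, and 16 members shown in grey did not pass the threshold.

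Many glycolytic genes are known targets of hypoxia-inducible factor, which binds ACGTG or GCGTG, so the promoters of 4 members are shown. Each is 300 bases of RefSeq on GRCm38.p6, running from 250 bases before to 50 after an annotated start, 5′ to 3′ on the gene's strand, with ACGTG or GCGTG on either strand in capitals. Hk3 is the largest fall, Ldhb and Aldoc are the largest rises, and Slc16a3 is the lactate exporter gene. Aldoc has 2 annotated starts, of which the upstream one is shown.
Hk3, chr13:55021336-55021635, minus strand: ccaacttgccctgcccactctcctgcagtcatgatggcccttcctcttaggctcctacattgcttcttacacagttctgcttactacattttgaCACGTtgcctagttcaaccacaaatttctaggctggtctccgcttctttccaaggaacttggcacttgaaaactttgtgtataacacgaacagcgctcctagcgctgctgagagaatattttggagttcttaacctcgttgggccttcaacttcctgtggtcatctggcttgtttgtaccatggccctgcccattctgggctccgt
Ldhb, chr6:142507908-142508207, minus strand: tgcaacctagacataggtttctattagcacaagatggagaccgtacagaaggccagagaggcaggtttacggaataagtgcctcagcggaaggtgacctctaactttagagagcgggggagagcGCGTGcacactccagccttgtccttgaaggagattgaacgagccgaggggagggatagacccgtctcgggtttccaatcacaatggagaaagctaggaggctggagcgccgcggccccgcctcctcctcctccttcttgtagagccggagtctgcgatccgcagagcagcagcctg
Aldoc, chr11:78322823-78323122, plus strand: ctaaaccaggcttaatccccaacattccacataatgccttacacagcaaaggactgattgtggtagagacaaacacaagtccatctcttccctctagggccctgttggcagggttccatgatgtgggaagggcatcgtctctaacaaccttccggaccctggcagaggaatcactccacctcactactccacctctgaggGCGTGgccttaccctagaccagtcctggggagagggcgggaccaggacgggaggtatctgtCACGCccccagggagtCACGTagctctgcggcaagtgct
Slc16a3, chr11:120948817-120949116, plus strand: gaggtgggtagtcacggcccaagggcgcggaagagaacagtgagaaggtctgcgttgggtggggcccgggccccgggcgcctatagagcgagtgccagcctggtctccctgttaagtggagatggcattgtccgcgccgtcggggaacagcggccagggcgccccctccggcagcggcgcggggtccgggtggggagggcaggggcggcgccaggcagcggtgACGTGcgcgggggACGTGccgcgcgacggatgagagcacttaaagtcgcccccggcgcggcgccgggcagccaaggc
These windows hold 1 match in Hk3, 1 in Ldhb, 3 in Aldoc and 2 in Slc16a3. All 34 members had at least 1 RefSeq window, 48 in all. ACGTG was found in 39.6% of the members' windows and in 19.6% of 32851 windows of all genes, and GCGTG in 58.3% and 32.4%. Of the 9 windows of members that rose, 6 held ACGTG and 7 GCGTG, and of the 15 windows of members that fell, 8 held ACGTG and 5 GCGTG. Of all 48 windows, 19 held ACGTG and 28 GCGTG. Most windows with GCGTG thus belonged to members that neither rose nor fell, and most with ACGTG to members that did. A link between matches and direction was not tested. The E-box CACGTG, which contains ACGTG, was in 8.3% of the members' windows and 7.2% of all, and the antioxidant response element core TGANNNNGC in 39.6% and 41.3%. CACGTG was in 2 of the 9 windows of members that rose and 0 of the 15 of members that fell, and TGANNNNGC in 4 and 9. The windows of all genes were not limited to genes tested here or matched for base composition. A match is a description of the letters and not a site of binding, and several windows belong to the same gene.

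Of the glucose transporter genes among the members, Slc2a1 rose and Slc2a6 did not pass the test. Slc2a1, the gene of GLUT1, the main uptake transporter of activated macrophages, had 39.7, 39.8 and 43.3 FPKM in contact and 29.8, 28.9 and 29.2 FPKM in transwell libraries. All 3 contact libraries lay above all transwell libraries, and the log2 change was 0.37 ± 0.07 (SE, edgeR adjusted p = 0.00286). Slc2a6, the gene of GLUT6, a transporter of inner membranes, had 10.4, 11.8 and 10.7 FPKM in contact and 12.5, 11.4 and 10.98 FPKM in transwell libraries (log2 change -0.20 ± 0.09, adjusted p = 0.121). Slc2a6 made up 21.2 ± 1.57% of the summed FPKM of the pair in contact and 28.4 ± 1.16% with transwell (SD, n = 3 each), without overlap. An exact two-sided permutation test of 3 against 3 libraries cannot go below p = 0.1, the value it gave here.

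The hexokinases, which trap glucose in the cell as glucose phosphate, fell together, and unequally. Hk3 (ENSMUSG00000025877, protein-coding, chromosome 13, 55005985 to 55021385 on GRCm38), a hexokinase gene of myeloid cells, had 33.9, 31.0 and 34.6 FPKM in contact and 103, 95.7 and 97.5 FPKM in transwell libraries. All 3 contact libraries lay far below all 3 transwell libraries. The log2 change was -1.69 ± 0.08 (SE, edgeR adjusted p = 6.1e-07) and ranged from -1.75 to -1.55 over the alternatives. Hk2, the inducible hexokinase gene, had 22.9, 22.01 and 23.4 FPKM in contact and 26.8, 27.5 and 26.3 FPKM in transwell libraries (log2 change -0.35 ± 0.07, edgeR adjusted p = 0.00249). Hk1, expressed in most tissues, had 8.75, 9.95 and 9.35 FPKM in contact and 12.6, 11.8 and 11.8 FPKM in transwell libraries (log2 change -0.48 ± 0.08, edgeR adjusted p = 0.000875). Neither gene overlapped between groups.

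Because Hk3 fell most, the make-up of the step changed. The 3 genes summed to 65.3 ± 2.19 FPKM in contact and 138 ± 4.21 FPKM in transwell, which is a ratio of 0.474. Hk3 made up 50.8 ± 1.32% of that sum in contact and 71.7 ± 0.77% in transwell libraries, Hk2 34.9 ± 0.124% in contact and 19.5 ± 0.796% in transwell, and Hk1 14.3 ± 1.29% in contact and 8.74 ± 0.0706% (SD, n = 3 each). Hk3 was thus the most abundant of the 3 in every library, with no overlap between groups in any share (exact permutation p = 0.1 each, the smallest possible). Within contact, Hk3 was lowest in replicate 2, where epithelial markers were highest, and its contact values spanned 10.7% of their mean.

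**Figure D2:**
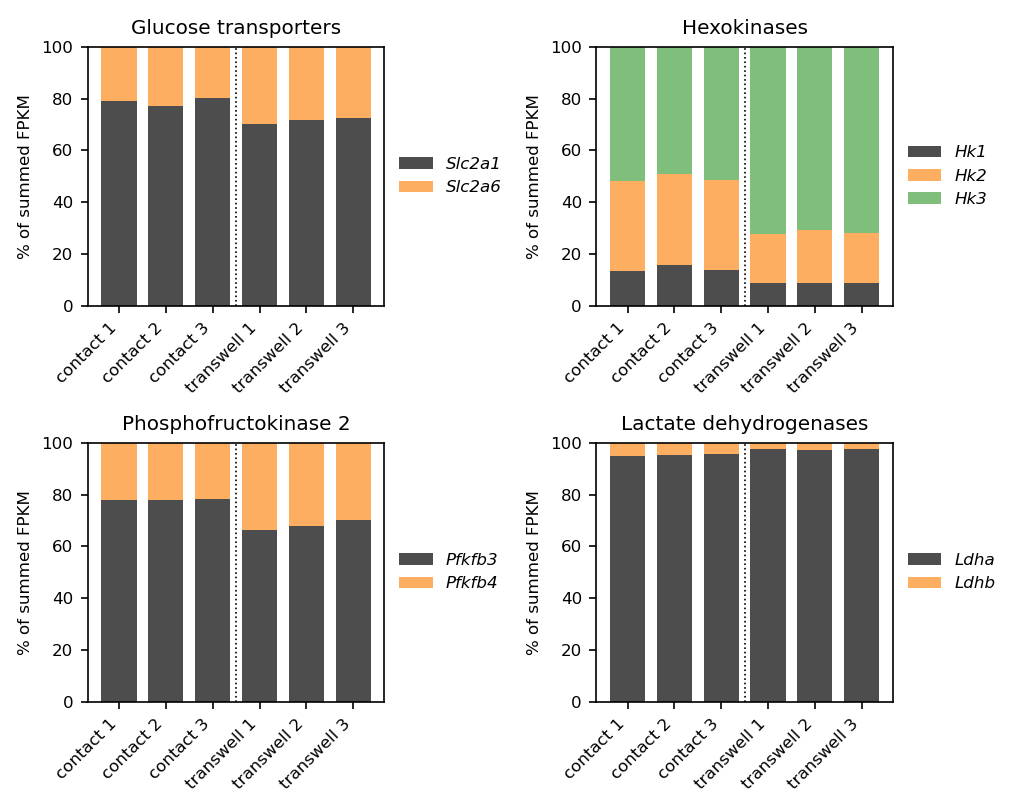
Share of each gene in the summed FPKM of its step (percent, bars stacked to 100) in the 3 contact libraries, left of the dotted line, and the 3 transwell libraries. Hk3 gives 49.2 to 51.7% of hexokinase transcript in contact and 70.9 to 72.4% in transwell libraries, while Ldha dominates lactate dehydrogenase in all 6.

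Glucose phosphate isomerase and the phosphofructokinases followed no common direction. Gpi1, the isomerase gene that makes fructose phosphate, had 95.8, 91.5 and 90.4 FPKM in contact and 116, 106 and 113 FPKM in transwell libraries, without overlap (log2 change -0.39 ± 0.07, edgeR adjusted p = 0.00193). Of the phosphofructokinase 1 genes, which encode the committing step, Pfkl gave 79.9 ± 0.0911% of the summed FPKM in contact and 82.0 ± 1.28% in transwell libraries. Pfkl stood at 42.0 ± 0.797 FPKM in contact and 37.7 ± 2.15 FPKM in transwell libraries (SD, n = 3 each), and did not pass after scaling (log2 change 0.04 ± 0.07, edgeR adjusted p = 0.71). Pfkp, the platelet-type gene, had 5.39, 5.72 and 5.85 FPKM in contact and 4.43, 4.20 and 4.42 FPKM in transwell libraries (log2 change 0.26 ± 0.08, edgeR adjusted p = 0.0222). Pfkm, the muscle-type gene, had 4.92 ± 0.425 FPKM in contact and 3.91 ± 0.397 FPKM in transwell libraries and did not pass (adjusted p = 0.18). Leaving out contact replicate 2 or 3 or transwell replicate 2 or 3 ended the Pfkp call (log2 change 0.20 to 0.27, adjusted p = 0.0644 to 0.126), as did fitting without a filter or after quantile normalization.

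The phosphofructokinase 2 genes, whose enzymes set the level of the sugar phosphate that activates phosphofructokinase 1, went in opposite directions. Pfkfb3 had 19.8, 19.4 and 21.4 FPKM in contact and 14.8, 16.8 and 16.2 FPKM in transwell libraries (log2 change 0.23 ± 0.08, edgeR adjusted p = 0.043). Pfkfb4 had 5.61, 5.47 and 5.94 FPKM in contact and 7.46, 7.97 and 6.8 FPKM in transwell libraries (log2 change -0.50 ± 0.09, edgeR adjusted p = 0.00195). Neither overlapped between groups. Pfkfb4 gave 21.9 ± 0.204% of their summed FPKM in contact and 31.8 ± 1.997% with transwell (SD, n = 3 each, exact permutation p = 0.1, the smallest possible). The Pfkfb3 call ended without any one of the 6 libraries (log2 change 0.18 to 0.26, adjusted p = 0.0553 to 0.142) with the replicate block (adjusted p = 0.0548), with median-ratio scaling and without a filter, while that of Pfkfb4 held in all 18 alternatives.

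Aldolase was carried almost wholly by Aldoa, and the minor gene Aldoc rose. Aldoc (ENSMUSG00000017390, protein-coding, chromosome 11, 78322968 to 78327781 on GRCm38), known as the brain-type aldolase gene, had 11.7, 12.1 and 13.0 FPKM in contact and 6.63, 5.85 and 5.89 FPKM in transwell libraries. The log2 change was 0.89 ± 0.09 (SE, edgeR adjusted p = 6.52e-05) and ranged from 0.79 to 0.99 over the alternatives. Aldoa had 756, 732 and 707 FPKM in contact and 851, 751 and 802 FPKM in transwell libraries, and the groups overlapped (log2 change -0.25 ± 0.07, edgeR adjusted p = 0.0246). Aldoc therefore gave only 1.65 ± 0.14% of aldolase FPKM in contact and 0.758 ± 0.025% in transwell libraries. Leaving out any contact replicate or transwell replicate 3 ended the Aldoa call (log2 change -0.28 to -0.23, adjusted p = 0.0544 to 0.0832), as did limma on FPKM, upper-quartile scaling and the filter on transwell FPKM. After quantile normalization its change was 0.05.

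**Figure D3:**
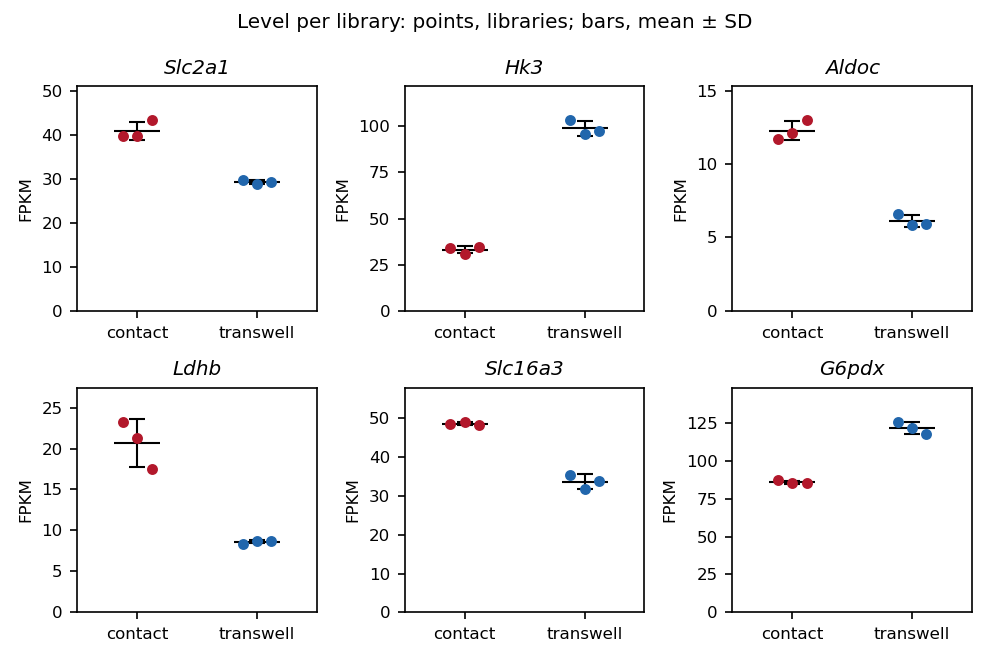
FPKM of 6 members in each library (points), with the mean and SD of each group (n = 3); contact is left of transwell and every axis starts at 0. In all 6 panels the groups are apart, with Hk3 and G6pdx lower and Slc2a1, Aldoc, Ldhb and Slc16a3 higher in contact.

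The abundant enzymes from triose phosphate to pyruvate differed by at most 1.23-fold. Pkm, the pyruvate kinase gene, had 647, 662 and 622 FPKM in contact and 788, 689 and 716 FPKM in transwell libraries (log2 change -0.30 ± 0.07, edgeR adjusted p = 0.0107). Gapdh, the gene of the oxidising step, had 31.8, 33.6 and 30.1 FPKM in contact and 35.6, 34.2 and 35.9 FPKM in transwell libraries (log2 change -0.26 ± 0.07, edgeR adjusted p = 0.0161). Tpi1, Pgk1, Pgam1 and Eno1, which encode triose phosphate isomerase, phosphoglycerate kinase, phosphoglycerate mutase and the main enolase, lay between -0.18 and -0.03 and did not pass. Pgk1, for example, stood at 439 ± 13.0 FPKM in contact and 435 ± 34.97 FPKM in transwell libraries (SD, n = 3 each). The minor enolase genes Eno2 (2.25 ± 0.28 FPKM in contact and 1.89 ± 0.14 FPKM in transwell libraries) and Eno3 (4.38 ± 0.511 FPKM in contact and 4.64 ± 0.609 FPKM in transwell) did not pass either, and Eno1 gave 97.4 ± 0.341% of enolase FPKM in contact and 97.6 ± 0.362% in transwell libraries.

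The Pkm call ended in limma on FPKM (log2 change -0.18, adjusted p = 0.108) and after quantile normalization (-0.09, adjusted p = 0.198). Gapdh lost its call in limma and without contact replicate 1 or 3 or transwell replicate 3 (log2 change -0.26 to -0.23, adjusted p = 0.058 to 0.0752). Transwell replicate 1 was the highest of the 6 libraries for Aldoa, Pkm, Pgk1, Pgam1, Eno1 and Tpi1, and without it the Tpi1 change was 0.04. The level of Gapdh, far below its neighbours in the pathway, is uncertain. The file gives its orthology number to 373 other rows, most of them unnamed Gm loci, of which 110 had counts. These held 12763 counts beside 16744 of Gapdh over the 6 libraries, or 45.1% of the total in contact and 41.1% in transwell libraries. The largest of them, with 3813 counts, is Peli2, which is not a Gapdh copy, so these shares include counts that do not belong to such copies. The labels do not say how reads shared by near-identical copies were counted.

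**Figure D4:**
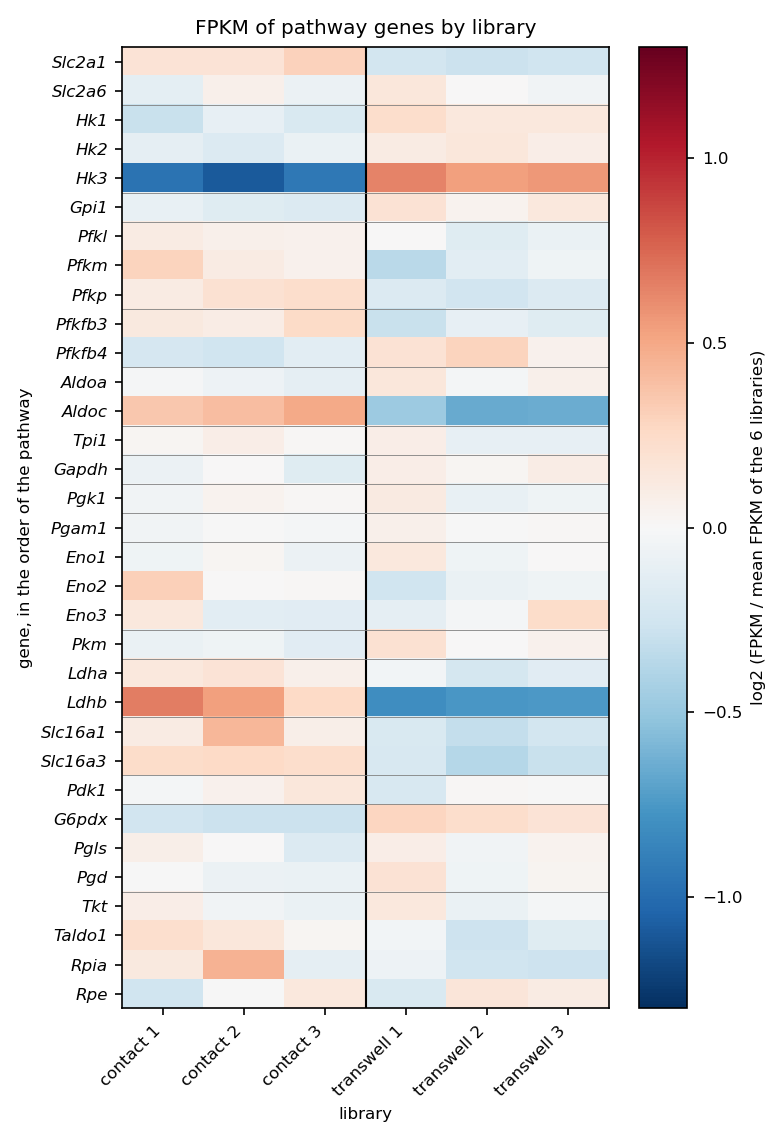
Level of the 33 members with a mean of at least 1 FPKM in each library, as log2 of FPKM over the gene's mean in the 6 libraries (red above, blue below), with contact left of the line and the genes in pathway order. Hk3 and G6pdx are blue and Ldhb, Aldoc and Slc16a3 red in all 3 contact libraries, while transwell replicate 1 is the reddest column for Aldoa, Eno1 and Pkm.

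Of the genes for lactate, Ldhb and the transporter genes Slc16a1 and Slc16a3 were higher in contact, and Ldha did not pass the test. Ldhb (ENSMUSG00000030246, protein-coding, chromosome 6, 142490249 to 142507957 on GRCm38), which encodes the heart-type subunit, had 23.3, 21.2 and 17.5 FPKM in contact and 8.39, 8.66 and 8.75 FPKM in transwell libraries. Contact replicate 3 was the lowest of its group and still above every transwell library. The log2 change was 1.15 ± 0.12 (SE, edgeR adjusted p = 4.95e-05), from 1.05 to 1.25 over the alternatives. Ldha, the muscle-type subunit gene and a known hypoxia target, had 431, 443 and 409 FPKM in contact and 382, 335 and 354 FPKM in transwell libraries, without overlap, but did not pass (log2 change 0.14 ± 0.07, edgeR adjusted p = 0.163). Without transwell replicate 1 it did (log2 change 0.20, adjusted p = 0.035). Ldhb gave 4.60 ± 0.507% of the FPKM of the pair in contact and 2.36 ± 0.193% with transwell (SD, n = 3 each, exact permutation p = 0.1, the smallest possible).

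Slc16a3, which encodes MCT4, had 48.4, 49.0 and 48.2 FPKM in contact and 35.4, 31.6 and 33.7 FPKM in transwell libraries (log2 change 0.41 ± 0.07, edgeR adjusted p = 0.00134). Slc16a1, the gene of the transporter MCT1, had 7.34, 9.14 and 7.16 FPKM in contact and 5.91, 5.48 and 5.74 FPKM in transwell libraries (log2 change 0.35 ± 0.11, edgeR adjusted p = 0.0292). Slc16a3 gave 86.1 ± 1.55% of the FPKM of the pair in contact and 85.5 ± 0.236% in transwell libraries, with overlap (exact permutation p = 0.5). Slc16a1 did not pass without contact replicate 2 or transwell replicate 2 or 3 (log2 change 0.24 to 0.35, adjusted p = 0.0922 to 0.0975) or after quantile normalization. Pdk1, whose kinase holds back pyruvate dehydrogenase, stood at 10.6 ± 0.611 FPKM in contact and 9.73 ± 0.827 FPKM in transwell libraries (log2 change 0.01 ± 0.09, edgeR adjusted p = 0.954).

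The order of the contact libraries was set beside the epithelial markers, which were highest in replicate 2 and lowest in replicate 3. Slc16a1 and Slc16a3 had that order, although the contact values of Slc16a3 spanned only 1.6% of their mean, and Slc2a1, Pfkp, Pfkfb3, Aldoc and Ldhb did not. Ldhb was highest in replicate 1 and lowest in replicate 3, as were the 8 fibroblast markers, which summed to 24.9, 16.8 and 10.5 FPKM in contact and 8.03, 3.68 and 3.54 FPKM in transwell libraries. The neutrophil markers (1123, 863 and 757 FPKM in contact replicates 1, 2 and 3) and the erythroid markers (3.58, 1.95 and 1.75 FPKM) had the same order. Of all 34 members, 8 had the order of the epithelial markers, including 2 of the 7 that rose and 2 of the 10 that fell. The order shared by the fibroblast, neutrophil and erythroid markers was found in 11, including 1 of the 7 that rose and 4 of the 10 that fell. With only 3 libraries any order is met by some genes by chance, and the share over all tested genes was not computed. The part of other cell types in these levels was not tested.

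In the pentose phosphate pathway 2 of 7 members fell (28.6%) and none rose, against 16.1% lower and 21.4% higher among all tested genes. G6pdx (ENSMUSG00000031400, protein-coding, chromosome X, 74409483 to 74429194 on GRCm38), whose enzyme makes the first NADPH and limits the rate of the pathway, had 87.1, 85.3 and 85.2 FPKM in contact and 126, 121 and 118 FPKM in transwell libraries. The log2 change was -0.62 ± 0.06 (SE, edgeR adjusted p = 6.07e-05), from -0.65 to -0.50 over the alternatives. Pgd, the gene of phosphogluconate dehydrogenase, which makes the second NADPH, had 159, 151 and 149.6 FPKM in contact and 181, 153 and 163 FPKM in transwell libraries, with overlap (log2 change -0.23 ± 0.08, edgeR adjusted p = 0.0485). That call ended without any one library other than transwell replicate 2 (log2 change -0.26 to -0.15, adjusted p = 0.0842 to 0.139) and under 6 other alternatives. Pgls, the lactonase gene between them, stood at 18.2 ± 1.64 FPKM in contact and 18.9 ± 0.906 FPKM in transwell libraries (adjusted p = 0.162).

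None of the non-oxidative genes passed. Taldo1, the transaldolase gene and the most abundant member of the pathway, had 611, 582 and 535 FPKM in contact and 513, 435 and 470.2 FPKM in transwell libraries (log2 change 0.17 ± 0.09, edgeR adjusted p = 0.153). It passed without transwell replicate 1 (log2 change 0.24, adjusted p = 0.0352). Tkt, the transketolase gene, stood at 80.6 ± 5.15 FPKM in contact and 82.1 ± 6.85 FPKM in transwell libraries, and the isomerase and epimerase genes Rpia (5.14 ± 1.02 FPKM in contact and 3.99 ± 0.321 FPKM in transwell) and Rpe (19.7 ± 2.69 FPKM in contact and 20.6 ± 2.61 FPKM in transwell) overlapped between groups (SD, n = 3 each). As summed FPKM the oxidative branch stood at 257 ± 7.30 in contact and 306 ± 18.1 in transwell libraries, and the non-oxidative branch at 682 ± 41.0 in contact and 579 ± 43.4 in transwell. Both sums were apart between groups (exact permutation p = 0.1, the smallest possible). After TMM scaling the ratios of contact to transwell were 0.775 for the oxidative and 1.09 for the non-oxidative branch. Fbp1, the fructose bisphosphatase gene of gluconeogenesis, lay under 0.6 FPKM in every library.

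Summed by step, 11 of 18 steps had FPKM ranges that did not overlap, 6 higher and 5 lower in contact, on a measure where 51.2% of single tested genes did not overlap. These sums are of unscaled FPKM, and after TMM scaling the ratio of contact to transwell was 1.05 for phosphofructokinase 1 and 1.02 for phosphofructokinase 2. Among the steps that did not overlap, the ratios farthest from 1 were those of hexokinase, at a ratio of contact to transwell of 0.474, and the lactate transporters, at a ratio of 1.44 (56.4 ± 1.51 FPKM in contact and 39.3 ± 2.12 FPKM in transwell). For hexokinase and the lactate transporters the TMM-scaled ratios were 0.437 and 1.32. The exact permutation test cannot fall below p = 0.1 for any step, and after adjustment over the 18 steps the smallest p was 0.164.

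Genes next to the pathway were counted in the same test. Of 21 tested genes of glycolysis and hexose entry that are not members, 2 rose (9.52%) and 6 fell (28.6%), with a median log2 change of -0.21. Among all tested genes 21.4% rose and 16.1% fell. The hexose and urate transporter gene Slc2a9 (1.73 ± 0.144 FPKM in contact and 3.67 ± 0.399 FPKM in transwell libraries, log2 change -1.20) and the lactate transporter gene Slc16a7 (1.36 ± 0.229 FPKM in contact and 2.64 ± 0.513 FPKM in transwell, -1.06) fell. Bpgm, which makes bisphosphoglycerate, rose (5.35 ± 0.838 FPKM in contact and 3.02 ± 0.346 FPKM in transwell, 0.71). Slc2a3, the gene of GLUT3, was at 1.06 ± 0.0764 FPKM in contact and 1.61 ± 0.401 FPKM in transwell (-0.72, adjusted p = 0.0126), a call that ended without contact replicate 2 (adjusted p = 0.0555) and in limma (adjusted p = 0.0629). Of 9 tested pentose phosphate genes outside the members 2 rose and 2 fell (22.2% each). H6pd, the G6pdx counterpart of the endoplasmic reticulum (12.8 ± 1.69 FPKM in contact and 18.5 ± 0.723 FPKM in transwell libraries, -0.64), fell along with Dera (4.22 ± 0.255 FPKM in contact and 6.49 ± 0.216 FPKM in transwell, -0.74). The ribose phosphate pyrophosphokinase gene Prps1 rose (11.1 ± 2.46 FPKM in contact and 7.21 ± 0.573 FPKM in transwell, 0.51, adjusted p = 0.0252), as did its partner Prpsap1 (0.45), and the Prps1 call ended without contact replicate 1 or 2 or transwell replicate 2 or 3 (adjusted p = 0.0595, 0.0867, 0.0533 and 0.104).

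Of 13 tested genes between pyruvate and acetyl-CoA 2 rose and 2 fell (15.4% each), against 21.4% higher and 16.1% lower among all tested genes. Pcx, the pyruvate carboxylase gene, fell (0.857 ± 0.0603 FPKM in contact and 2.16 ± 0.161 FPKM in transwell libraries, log2 change -1.45), as did Mpc2, a subunit gene of the mitochondrial pyruvate carrier (3.59 ± 0.118 FPKM in contact and 4.50 ± 0.405 FPKM in transwell, -0.44), whose call ended in limma with a pseudocount of 1 (adjusted p = 0.0507). The pyruvate dehydrogenase kinase gene Pdk3 (14.6 ± 0.889 FPKM in contact and 8.60 ± 1.05 FPKM in transwell, 0.65) and the opposing phosphatase gene Pdp2 (3.51 ± 0.262 FPKM in contact and 2.12 ± 0.13 FPKM in transwell, 0.62) both rose. In the glycogen list 4 of 12 genes fell and none rose, and those that fell included the branching enzyme gene Gbe1 (12.8 ± 0.938 FPKM in contact and 16.4 ± 1.34 FPKM in transwell, -0.47), the glycogenin gene Gyg (-0.42) and the glycogen synthase gene Gys1 (-0.32). Gys1 did not pass without contact replicate 1 (adjusted p = 0.0523) or in limma (adjusted p = 0.0598). These shares of 33.3% falling and none rising stand beside 16.1% and 21.4% of all tested genes.

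Among 19 tested regulators 6 rose and 6 fell (31.6% each), against 21.4% higher and 16.1% lower among all tested genes. Nfe2l2, the gene of NRF2, which drives G6pdx and other pentose phosphate genes in many cells, had 134, 132 and 143 FPKM in contact and 45.7, 54.8 and 51.6 FPKM in transwell libraries (log2 change 1.31 ± 0.08, edgeR adjusted p = 2.76e-06). Its direction was opposite to that of G6pdx. The transcript does not measure NRF2 activity, and a link to G6pdx was not tested. Epas1, the gene of HIF-2 alpha (0.793 ± 0.145 FPKM in contact and 0.357 ± 0.0586 FPKM in transwell, 1.02, but 0.14 with adjusted p = 0.151 after quantile normalization), and Vhl, whose product degrades hypoxia-inducible factors (17.3 ± 1.47 FPKM in contact and 11.7 ± 0.539 FPKM in transwell, 0.45), rose, and Mtor, the growth kinase gene, fell (3.12 ± 0.203 FPKM in contact and 4.31 ± 0.333 FPKM in transwell, -0.58). Hif1a, named after its values were seen, had 95.3, 104 and 123 FPKM in contact and 58.1, 86.9 and 75.3 FPKM in transwell libraries (0.43 ± 0.14, edgeR adjusted p = 0.0356). Its call ended without contact replicate 2 or 3 or transwell replicate 1 or 3 (log2 change 0.30 to 0.47, adjusted p = 0.0748 to 0.121).

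Hypoxia-inducible genes outside glycolysis rose in 9 of 17 tested cases (52.9%) and fell in 3 (17.6%), against 21.4% and 16.1% of all tested genes, with a median log2 change of 0.35. The stress gene Ddit4 had 10.8, 14.5 and 11.5 FPKM in contact and 3.17, 2.35 and 3.38 FPKM in transwell libraries (1.93), and the adenylate kinase gene Ak4 stood at 5.78 ± 1.12 FPKM in contact and 2.29 ± 0.181 FPKM in transwell libraries (1.22). Car12, a carbonic anhydrase gene, had 1.24, 1.66 and 0.91 FPKM in contact replicates 1, 2 and 3, in the order of the epithelial markers, and 10 counts in all in transwell libraries. Other named genes outside the members that rose had the same order in contact, namely Bpgm, Prps1, Prpsap1, Pdk3, Epas1, Vhl and Adm. Pdp2, Nfe2l2, Hif1a, Ddit4 and Ak4 did not, although Ddit4 and Ak4 (4.97, 7.06 and 5.30 FPKM in contact replicates 1, 2 and 3) were also highest in replicate 2. The share of all tested genes with this order was not computed, and the part of other cell types in these levels was not tested. Adm, the adrenomedullin gene, stood at 0.887 ± 0.405 FPKM in contact and 0.343 ± 0.0153 FPKM in transwell (1.24, adjusted p = 0.0455), and its call ended without contact replicate 1 or 2 or any transwell library (log2 change 1.02 to 1.28, adjusted p = 0.0874 to 0.158), in DESeq2, with the replicate block and after quantile normalization. These lists share no gene with the members, and no difference between them and the members was tested.

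**Figure D5:**
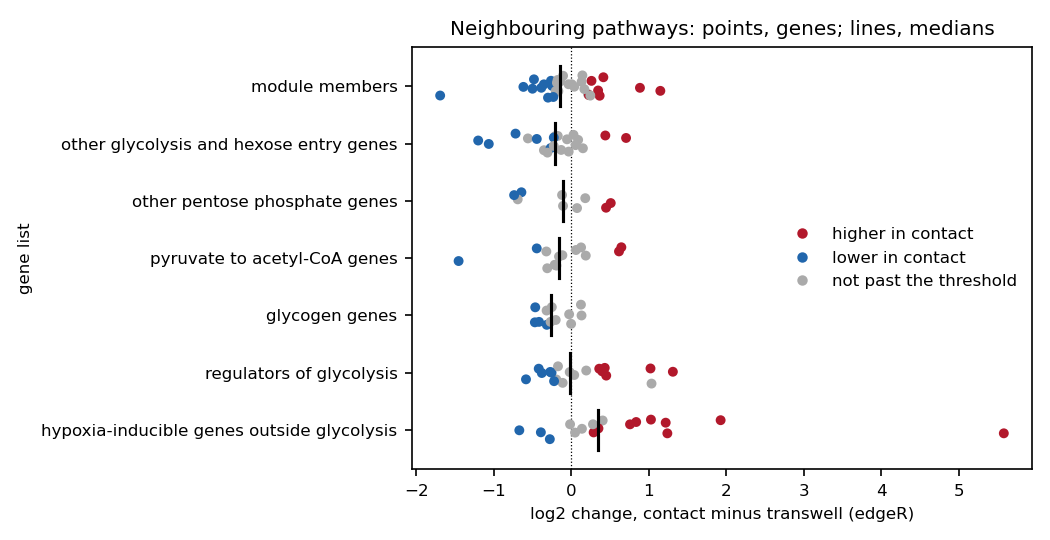
Log2 change (contact minus transwell, edgeR) of tested genes (points) in the members and in 6 neighbouring gene lists, with the list median as a line. The medians run from -0.26 for the glycogen genes to 0.35 for the hypoxia-inducible genes outside glycolysis, and the point at 5.58 is Car12.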

How the data were processed

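Counts and FPKM per Ensembl gene were deposited by the authors for 6 libraries (3 contact, 3 transwell), per the file headers; groups and replicate numbers are those of the titles. Of deposited FPKM values with a count above 100, 99.93% lay within 1% of the count divided by exonic length and library total. GRCm38 and mm10 are named in the submitters' processing notes. The aligner, counter, annotation and strand setting are not stated in the labels. Of 52073 gene IDs shared with GENCODE M21, the deposited positions matched for 1472, so positions come from GENCODE M21 by ID.

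Of the genes, 14113 passed filterByExpr with a minimum count of 10, and their counts were scaled with TMM and tested two-sided with edgeR 4.0.16 (R 4.3.3; quasi-likelihood, no covariate). The standard error is the absolute log2 change over the square root of F. Alternatives used limma 3.58.1, DESeq2 1.42.0, other scalings and filters, and leaving out each library. Step sums and isozyme shares were computed from FPKM and tested by exact permutation over libraries. Other genes are the 4 largest called changes of each list, of which 1 is not reported here, and a symbol with several rows was read from the row with most counts. Members and lists were chosen with earlier results of these data known. The fit was also run on simulated counts in which few genes were changed, so that run says nothing on the choice of scaling. Between replicates, chi-square per degree of freedom lay between 5.90 and 22.7, so none were copies or repeat sequencing of one library. This does not show that they came from separate cultures.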

Additional observations from a re-analysis of the deposited data

How the results depend on the processing

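Of the 17 members past the threshold, 10 kept call and direction under all 18 alternatives, 1 of them added after the data were seen (limma after quantile normalization). Pfkp, Pfkfb3, Aldoa, Gapdh, Pkm, Slc16a1 and Pgd lost it at least once. Ldha and Taldo1 passed under 4 alternatives each.

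Counts of members higher in contact ranged from 4 to 8 without 1 library each, against 7. Members lower numbered 6 in limma on log2(FPKM + 1) and on log2(FPKM + 0.1), against 10. Over all genes, 1864 were higher where transwell FPKM averaged 1 or more, against 3016, and 1422 and 1442 were lower in limma with a pseudocount of 1 and 0.1 and 3418 after quantile normalization, against 2270. In the neighbouring lists together 12 and 13 genes were lower in limma with a pseudocount of 1 and 0.1, and 14 to 23 without 1 library each, against 23.

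Reversed signs were small in size, except for the fructose bisphosphatase step, which rests on few counts. Tpi1 was 0.0225 where transwell FPKM averaged 1 or more, 0.0846 and 0.0849 in limma with a pseudocount of 1 and 0.1 and 0.11 after quantile normalization, and it ranged from -0.1007 to 0.0409 without 1 library each (positive without transwell replicate 1). Pgk1 was 0.0138 and 0.0139 in limma and 0.0021 after quantile normalization. Pdk1 was -0.0046 in DESeq2 and with median-ratio scaling, -0.0209 without a filter and -0.0539 to 0.0448 without 1 library each. After quantile normalization Aldoa was 0.0531 and Eno2 -0.0621, and Pfkl ranged from -0.0335 to 0.0899 without 1 library each (negative without transwell replicate 2). With FPKM divided by TMM and by median-ratio factors, the log2 ratio of the triose phosphate isomerase step was -0.0348 and -0.0493 and that of phosphoglycerate kinase -0.11 and -0.12, and with median-ratio factors that of pyruvate dehydrogenase kinase was -0.0055. Without 1 library each, phosphoglycerate kinase ranged over -0.0309 to 0.0788, fructose bisphosphatase over -1.0671 to 1.8745, the Eno1 share difference over -0.299 to 0.0576 and that of Eno3 over -0.1717 to 0.1096 percentage points. The causes were not tested.

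Same-numbered libraries did not deviate together (correlations of -0.0828, -0.445 and 0.0557 for replicates 1, 2 and 3), so they were not taken as pairs. With the replicate block 6 members were higher and 10 lower. Values under about 1 FPKM, such as those of Fbp1, rest on few counts.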
